A study of Mus musculus with 42 samples.

Results

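Six3, Hesx1, Rax, Lhx2, Lhx5, Pax6 and Emx2, transcription factor genes of the anterior neural plate, held more SOX2 peaks in mouse epiblast-like cells kept without WNT activation than in the same cells after it when the 20000 best peaks of each list were counted, with the means of all 7 loci on that side. In the full lists, whose lengths differed widely, only Six3 kept this side. The 7 genes were chosen by name, with earlier results of these data known, out of 21938 protein-coding genes of the mm10 annotation. A ChIP–seq peak was counted for a gene where it overlapped, by at least 1 bp, the gene body extended by 10 kb on each side. The stretch so defined is called the locus of the gene below. A peak in a locus marks binding near the gene, and the peak lists hold no measure of its expression.

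Chromatin was taken at 72 h from cells of the HM1 line (129 background) that had been differentiated in FGF with LGK974, which blocks secretion of WNT ligands. Wild-type (WT) cells were either left in that medium (noCHIR, epiblast-like cells or EpiLCs) or given the GSK3 inhibitor CHIR99021 for the last day, which activates WNT signalling (CHIR, caudal epiblast-like cells or CEpiLCs). The mutant cells, Cdx1/2/4-/- (CdxKO) and T/Bra-/- (T/BraKO), were examined only with CHIR. SOX2 was immunoprecipitated in all 4 of these conditions, and β-catenin and LEF1 in the 3 with CHIR, with 3 biological replicates per group, which gave 10 groups and 30 peak lists. Each mutant is a cell line of its own, so genotype and line cannot be told apart, and how many clones stand behind each genotype is not stated in the labels or methods. The labelled cell identity could not be checked against marker genes, since no expression was measured here.

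SOX2 is an HMG-box factor that binds enhancers in pluripotent, epiblast and neural cells, usually with a partner factor. WNT signalling stabilises β-catenin, which is carried to DNA by TCF and LEF factors such as LEF1, and during gastrulation this signal is kept low in the anterior epiblast and high in the posterior one. The anterior neural plate, which forms forebrain and eyes, arises where WNT is blocked, whereas CDX factors and T/BRA act in the WNT-exposed caudal epiblast. Six3 is a homeobox factor of forebrain and eye that represses Wnt genes, Hesx1 a homeobox repressor of anterior forebrain and pituitary, and Rax a homeobox factor of the eye field. Lhx2 and Lhx5 are LIM-homeobox factors of the forebrain, Pax6 is the paired-box regulator of eye and forebrain, and Emx2 is a homeobox factor of the cerebral cortex.

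The lists differed widely in length, from 26940 peaks (SOX2, T/BraKO replicate 3) to 1008922 peaks (SOX2, WT CHIR replicate 1), and read depth is unknown because the lists carry no read counts. Counts below were therefore made among the 20000 peaks with the highest −log10 q of each list, and the full lists are described after them for each factor. The weakest peak so kept had a −log10 q of 3.26 in the shortest list and 14.1 in the longest one. With this number fixed, the mean number of SOX2 peaks per locus over all protein-coding genes was 0.751 ± 0.022 (SD, n = 3) in noCHIR, 0.744 ± 0.0503 in WT CHIR, 0.789 ± 0.00709 in CdxKO and 0.773 ± 0.0248 in T/BraKO. The 7 loci measured between 27.0 kb for Emx2 and 50.5 kb for Lhx2, beside a median locus of 37.4 kb over all genes.

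SOX2 binding at the loci was above that of the typical gene in every case. Over the 12 SOX2 libraries the mean number of peaks per library was 4.25 for Lhx5, 3.5 for Pax6, 3.0 for Six3, 2.83 for Lhx2, 1.92 for Emx2, 1.33 for Rax and 0.917 for Hesx1, while the median over all genes with a SOX2 peak was 0.5. Lhx5 exceeded 97.9% of those genes and Hesx1, the lowest, 66.9%. Summed over the 7 loci, the noCHIR libraries held 25, 32 and 22 SOX2 peaks, the WT CHIR libraries 16, 7 and 15, the CdxKO libraries 14, 16 and 14 and the T/BraKO libraries 16, 16 and 20. The noCHIR sums, 26.3 ± 5.13 (SD, n = 3), lay above all 9 sums of the CHIR libraries, whose group means were 12.7 ± 4.93 in WT, 14.7 ± 1.15 in CdxKO and 17.3 ± 2.31 in T/BraKO.

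**Figure D1:**
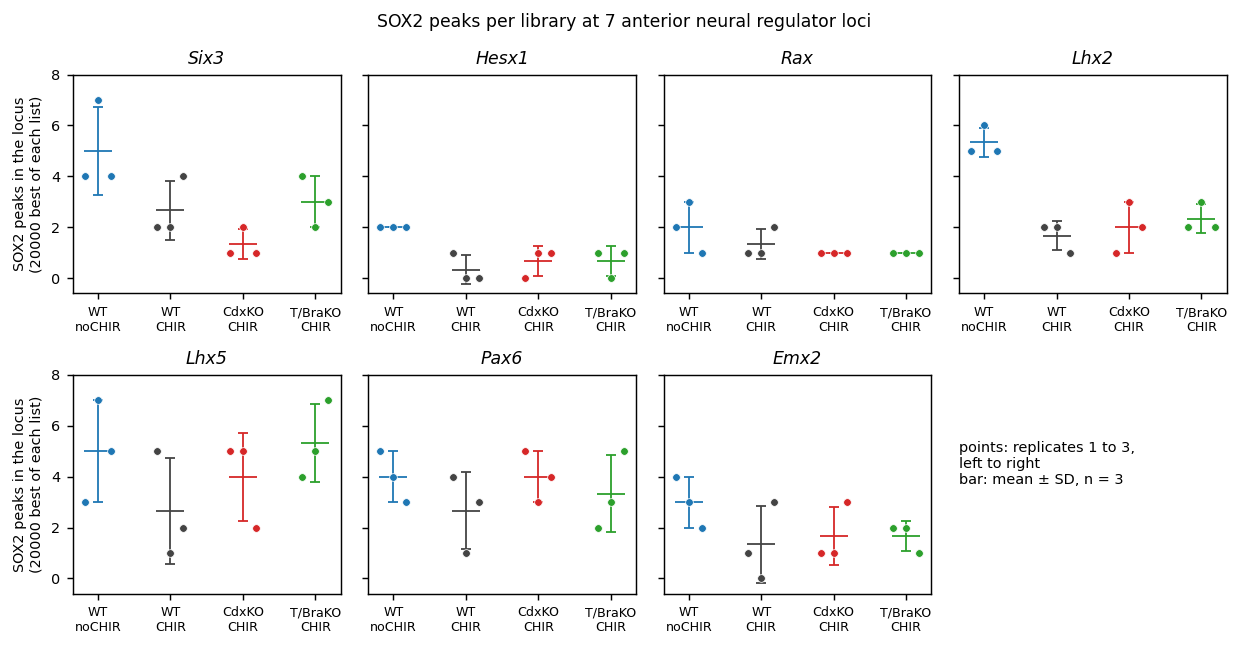
SOX2 peaks per library at each locus, counted among the 20000 best peaks of each list (vertical axis, number of peaks), by condition (horizontal axis). Points are replicates and bars the mean ± SD of 3. The 3 noCHIR points of Hesx1 and of Lhx2 sit above all points of the other conditions, while those of Pax6 and Lhx5 overlap them.

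At Six3 (chr17:85613608-85629302, plus strand), the noCHIR libraries held 4, 7 and 4 SOX2 peaks, WT CHIR 2, 2 and 4, CdxKO 1, 2 and 1, and T/BraKO 4, 2 and 3. Only CdxKO was separated from noCHIR, whose lowest libraries had as many peaks as the highest libraries of WT CHIR and T/BraKO. The mean was 5.0 ± 1.73 in noCHIR, 2.67 ± 1.15 in WT CHIR and 1.33 ± 0.577 in CdxKO (SD, n = 3). An upstream site 6.99 kb before the gene start (chr17:85606263-85607103), in an intron of the transcript Six3os1, was among the 20000 best in 3 of 3 noCHIR libraries and in 0 of 3 CdxKO libraries. Its fold enrichment was 12.6, 16.6 and 16.9 in noCHIR, 15.3, 4.25 and 4.3 in WT CHIR, 6.33, 5.82 and 5.39 in CdxKO, and 5.13, 6.04 and 5.89 in T/BraKO. The site was thus present in all 12 full lists, with the weaker values in all mutant libraries and in 2 of the 3 WT CHIR libraries. A second site at +11.47 kb (chr17:85624660-85625612), over an untranslated part of Six3, was called in 3 of 3 noCHIR, 2 of 3 WT CHIR, 1 of 3 CdxKO and 3 of 3 T/BraKO libraries.

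Hesx1 (chr14:26994416-27002329, plus strand) held 2, 2 and 2 SOX2 peaks in noCHIR, 1, 0 and 0 in WT CHIR, 0, 1 and 1 in CdxKO, and 1, 0 and 1 in T/BraKO. None of the 9 CHIR libraries reached the noCHIR count. The same sites gave both peaks in each noCHIR library. The one at +11.60 kb (chr14:27005802-27006394), beyond the 3′ end of the gene, had fold enrichments of 16.6, 21.8 and 9.95 and ranks of 3401, 1815 and 5305 in the noCHIR lists, rank 1 being the best peak of a list. It was in none of the 9 full SOX2 lists with CHIR, which included the list of 1008922 peaks. The other, at +6.06 kb (chr14:27000238-27000682), ranked 10693, 5466 and 2930 in noCHIR and was in none of the 3 full WT CHIR lists, but was among the 20000 best in 2 of 3 CdxKO and 2 of 3 T/BraKO libraries.

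The sequences of 3 sites are shown: the Hesx1 site seen only without CHIR and the Six3 site missing from the best CdxKO peaks, because the calls at them differed between conditions, and the leading Pax6 site, which was called in at least 2 of 3 libraries of each condition, for comparison. Each is the plus strand of RefSeq GRCm38.p6 from 100 bp before to 100 bp after the best-ranked summit, at chr14:27005918-27006118, chr17:85606515-85606715 and chr2:105691628-105691828 in this order. Capitals mark the searched motif words, given with their frequencies further on.
Hesx1 +11.60 kb: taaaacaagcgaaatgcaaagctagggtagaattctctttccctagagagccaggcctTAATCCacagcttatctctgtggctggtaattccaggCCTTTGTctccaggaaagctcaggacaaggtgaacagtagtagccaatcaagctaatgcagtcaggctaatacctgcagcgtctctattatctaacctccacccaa
Six3 -6.99 kb: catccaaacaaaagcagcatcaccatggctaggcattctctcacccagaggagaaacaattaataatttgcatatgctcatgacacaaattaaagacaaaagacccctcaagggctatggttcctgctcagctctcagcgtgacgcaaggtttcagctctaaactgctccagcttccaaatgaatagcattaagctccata
Pax6 +22.83 kb: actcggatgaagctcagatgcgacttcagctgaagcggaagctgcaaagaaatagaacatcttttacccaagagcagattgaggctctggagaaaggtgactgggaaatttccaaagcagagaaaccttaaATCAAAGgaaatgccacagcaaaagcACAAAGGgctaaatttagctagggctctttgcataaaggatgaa

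Rax (chr18:65928277-65939787, minus strand) held 2, 3 and 1 SOX2 peaks in noCHIR, 1, 1 and 2 in WT CHIR, and 1 in each of the CdxKO and T/BraKO libraries. Most of these came from a single site 1.54 kb upstream of the gene start (chr18:65941121-65941930), called in 3 of 3 noCHIR, CdxKO and T/BraKO libraries and in 1 of 3 WT CHIR libraries. Its fold enrichment was 24.1, 47.7 and 18.8 in noCHIR, 10.9, 18 and 5.61 in CdxKO, 8.28, 6.55 and 4.62 in T/BraKO, and 8.72 and 15.2 in replicates 1 and 3 of WT CHIR, the full list of WT CHIR replicate 2 having no peak there. All 3 noCHIR values were higher than every CHIR value, whereas the number of peaks in the locus overlapped between conditions.

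At Lhx2 (chr2:38339281-38369733, plus strand), 5, 6 and 5 SOX2 peaks were found in noCHIR, 2, 2 and 1 in WT CHIR, 1, 3 and 2 in CdxKO, and 2, 3 and 2 in T/BraKO. The noCHIR libraries did not overlap any CHIR group. A site at −0.88 kb (chr2:38338301-38338698), close to the gene start, ranked 8734, 10816 and 10803 in noCHIR and was in none of the full CdxKO lists. The intronic site at +9.09 kb (chr2:38347947-38348600), which also covers an exon of Gm27197, behaved otherwise. It was among the 20000 best in 2 of 3 noCHIR and 3 of 3 CdxKO libraries, with ranks of 3283, 1566 and 4667 in the latter.

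Lhx5 (chr5:120431699-120441223, plus strand) had the most SOX2 peaks of the 7 loci, with 3, 7 and 5 in noCHIR, 5, 1 and 2 in WT CHIR, 5, 5 and 2 in CdxKO, and 4, 5 and 7 in T/BraKO. The groups overlapped throughout. An intronic site at +6.47 kb (chr5:120437966-120438447) was called in 3 of 3 noCHIR and 0 of 3 WT CHIR libraries, although 2 of the full WT CHIR lists contained it.

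Pax6 (chr2:105668900-105697364, plus strand) held 5, 4 and 3 SOX2 peaks in noCHIR, 4, 1 and 3 in WT CHIR, 5, 3 and 4 in CdxKO, and 2, 3 and 5 in T/BraKO, with near-equal means of 4.0 ± 1.0 in noCHIR and CdxKO. Its leading site at +22.83 kb (chr2:105691148-105691971) spans a coding exon and the intron after it. The site ranked best in WT CHIR replicate 1, at 1957, and lay at 13770, 14976 and 6727 in noCHIR. A second intronic site at +21.37 kb (chr2:105689794-105690740) was among the 20000 best in 3 of 3 noCHIR and 0 of 3 WT CHIR libraries, but below that limit in all 3 full WT CHIR lists, at ranks of 44746 to 87948.

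Emx2 (chr19:59458372-59465357, plus strand) held 4, 3 and 2 SOX2 peaks in noCHIR, 1, 0 and 3 in WT CHIR, 1, 1 and 3 in CdxKO, and 2, 2 and 1 in T/BraKO, so that its groups overlapped. A site at +11.02 kb (chr19:59469080-59469877), downstream of the gene, was called in 3 of 3 noCHIR, 2 of 3 WT CHIR, 2 of 3 CdxKO and 3 of 3 T/BraKO libraries.

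The comparison of noCHIR with WT CHIR asks how SOX2 occupancy at anterior genes differs with WNT activation. The mean was higher in noCHIR at 7 of 7 loci, by a median of 1.67 peaks, where the median difference over all genes tested was 0.0. Groups did not overlap at 2 of 7 loci, Hesx1 and Lhx2, both higher in noCHIR, and 3.78% of 16669 loci were so separated with noCHIR higher. None of the 7 was separated with noCHIR lower, which held for 2.27% of all loci. Among the 5612 loci with at least 12 SOX2 peaks in total, which took in 6 of the 7, the share with noCHIR higher was 6.5% and 1 member was among them. Hesx1 differed by 1.67 peaks (2.0 ± 0.0 against 0.333 ± 0.577, SD, n = 3, p = 0.1, two-sided exact permutation test) and Lhx2 by 3.67 (5.33 ± 0.577 against 1.67 ± 0.577, p = 0.1, same exact test). A p of 0.1 is the smallest that 3 libraries against 3 can give in this test, so none of these comparisons could pass 0.05. The differences were 2.33 at Six3 (exact p = 0.3), 2.33 at Lhx5 (exact p = 0.3), 1.67 at Emx2 (exact p = 0.3), 1.33 at Pax6 (exact p = 0.5) and 0.667 at Rax (exact p = 0.7), with overlapping groups at each. Benjamini-Hochberg adjusted p was 1.0 for every locus. Without WT CHIR replicate 3, Six3 and Emx2 were separated as well, giving 4 of 7, and with the gene bodies alone the count was 1 (Hesx1).

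CdxKO was set against both WT conditions, which share their libraries with the comparison above. CdxKO with CHIR and WT without CHIR differ in genotype, line and treatment, which cannot be told apart in that comparison. Against noCHIR, 3 of 7 loci were separated with CdxKO lower, namely Six3 by 3.67 peaks, Hesx1 by 1.33 and Lhx2 by 3.33 (exact permutation p = 0.1 each), beside 2.71% of 15579 loci, and 0 of 7 with CdxKO higher, beside 2.5%. Of the 6 members with at least 12 peaks, 2 were separated with CdxKO lower, beside 4.06% of the loci with that many peaks. With the gene bodies alone, 0 of 7 were separated. Pax6 had equal means in both groups, and the CdxKO mean was lower at the other 6 loci. Against WT CHIR, 0 of 7 were separated in either direction, beside 2.48% of 17129 loci with CdxKO higher and 1.41% with CdxKO lower. The CdxKO mean exceeded the WT CHIR mean at 5 of 7 loci by 0.333 to 1.33 peaks, and was 1.33 lower at Six3 (exact p = 0.3) and 0.333 lower at Rax (exact p = 1.0). Among the 20000 best peaks the CdxKO and WT CHIR libraries overlapped at every locus. No difference in these counts beyond the replicate spread was thus detectable with 3 libraries a group. Under some other settings Six3 or Rax was separated with CdxKO lower, as listed in the last section.

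T/BraKO minus WT CHIR gave a similar picture, with 0 of 7 loci separated, beside 1.83% of 17172 loci with T/BraKO higher and 1.52% with T/BraKO lower. The largest difference was 2.67 peaks at Lhx5 (exact p = 0.3) and the others lay between −0.333 at Rax and 0.667 at Lhx2 and Pax6. When the 4 SOX2 groups were tested together over all ways of dividing the 12 libraries into 4 groups of 3, 3 of 7 loci had an unadjusted exact p below 0.05, beside 3.75% of 18537 loci. These were Lhx2 (exact p = 0.0156), Six3 (exact p = 0.0314) and Hesx1 (exact p = 0.0416), and the remaining 4 lay between 0.344 and 0.601. After Benjamini-Hochberg adjustment over all loci the p was 1.0 for each, and 0 of the 18537 loci passed 0.05. The lowest unadjusted p observed at any locus in this exact test was 0.000519, which is a result and not a limit of the test. With groups of 3 libraries, the adjusted values do not show that the groups were alike. The unadjusted values depended on the counting, and over the 5000 best peaks, the full lists, a −log10 q of at least 5 and loci with no or 50 kb extension the exact p lay between 0.013 and 0.638 at Six3, 0.108 and 0.416 at Lhx2 and 0.0582 and 0.353 at Hesx1. At Rax it was 0.00286 by the same exact test in full lists, where WT CHIR held the most peaks (23, 7 and 10, beside 7, 6 and 4 in noCHIR), and between 0.0727 and 0.279 under the other 4.

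The rank of the best SOX2 peak of a locus gave a different order from the number of peaks. The share of all loci separated by best rank was not counted, so the ranks are a description of these loci. At Rax the best rank was 997, 263 and 1408 in noCHIR and 14643, 14446 and 2101 in WT CHIR, without overlap. At Hesx1 it was 3401, 1815 and 2930 in noCHIR, 14023 in WT CHIR replicate 1, and no peak ranked in the other 2. Pax6 ran the other way, with 8395, 8052 and 6727 in noCHIR against 1957, 4460 and 6365 in WT CHIR. At Six3 the noCHIR and WT CHIR ranks were alike, 2597 to 3061 and 1852 to 3623, and both lay ahead of CdxKO, with 17861, 7318 and 5876. Lhx5 kept a peak among the best 2060 of every SOX2 list.

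**Figure D2:**
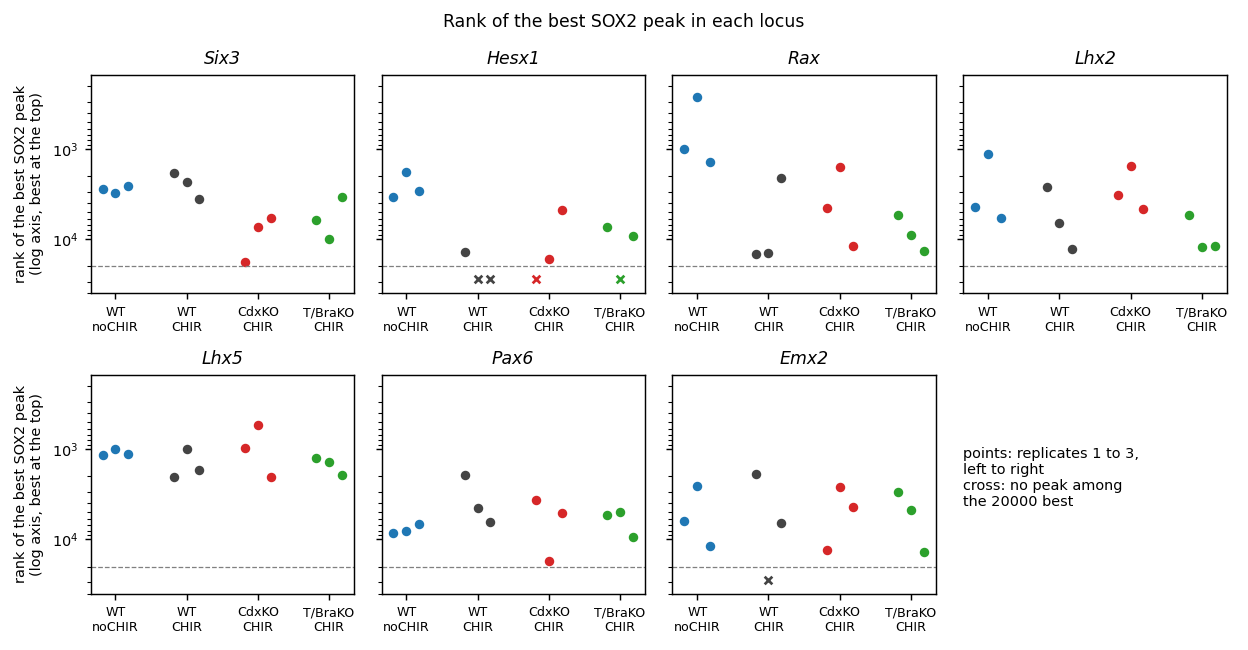
Rank of the best SOX2 peak in each locus (vertical axis, log scale, best at the top) for each replicate by condition (horizontal axis), with crosses where a list had no peak among its 20000 best. Lhx5 stays near the top in all conditions, Hesx1 is best ranked in noCHIR, and Six3 is lower in CdxKO than in both WT groups.

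In the full lists the WT CHIR mean was above the noCHIR mean at every locus but Six3. The summed counts of every mutant library stayed below all noCHIR sums. The 7 loci held 96, 95 and 90 SOX2 peaks in noCHIR, 173, 68 and 83 in WT CHIR, 78, 46 and 65 in CdxKO, and 86, 59 and 23 in T/BraKO. The 173 belong to the list of 1008922 peaks and the 23 to the list of 26940. Outside replicate 1, both WT CHIR sums were below all noCHIR sums, whereas with it the WT CHIR mean was 108.0 ± 56.8 (SD, n = 3) and the noCHIR mean 93.7 ± 3.21. Hesx1 held 4, 3 and 7 peaks in the full noCHIR lists and 10, 8 and 2 in the WT CHIR ones, and Lhx2 19, 19 and 16 against 36, 15 and 12, so the sign of both differences turned, to −2.0 and −3.0 peaks. The difference between noCHIR and WT CHIR was negative at 4 more loci, Rax (−7.67), Lhx5 (−2.67), Emx2 (−1.0) and Pax6 (−0.333), and stayed positive at Six3 (2.33). None of the 7 was separated with noCHIR higher. At Hesx1 and Rax the lower noCHIR mean did not rest on replicate 1, since the other WT CHIR libraries held 8 and 2 and 7 and 10 peaks. The part of list length in these values was not tested.

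**Figure D3:**
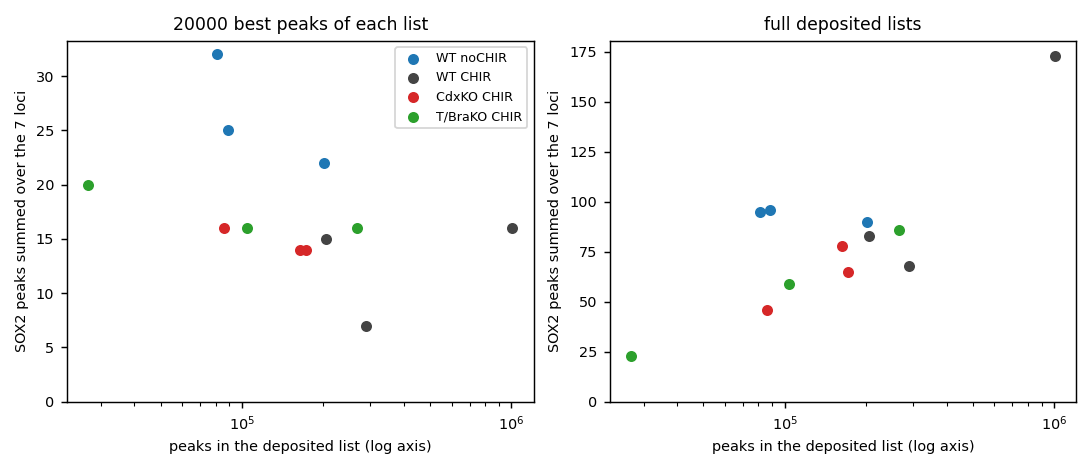
SOX2 peaks summed over the 7 loci (vertical axis) against the number of peaks in the deposited list (horizontal axis, log scale), among the 20000 best peaks on the left and in full lists on the right, 1 point per library. On the left the 3 noCHIR libraries, at 22 to 32, are above the other 9, with lists of 81239 to 201773 peaks, and on the right the longest list gives the highest sum, 173.

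Peaks of different libraries were merged into sites where they overlapped, which gave 83 SOX2 sites at the loci out of 122617 in the genome. Lhx5 had 19, Pax6 18, Six3 16, Lhx2 14, Emx2 8, Rax 5 and Hesx1 3. Of the 83, 48 were called in 1 library alone, 11 in at least 6 of the 12 and 1 in all. In noCHIR 13 of the 42 sites called were found in 3 of 3 replicates (31.0%), where 23.5% of all noCHIR sites in the genome were. For WT CHIR the share was 1 of 32 (3.12%, genome 3.84%), for CdxKO 4 of 29 (13.8%, genome 14.0%) and for T/BraKO 5 of 35 (14.3%, genome 12%). The low agreement among WT CHIR replicates was thus seen over the whole genome as well as at these loci. The 13 sites of noCHIR included at least 1 at each locus.

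**Figure D4:**
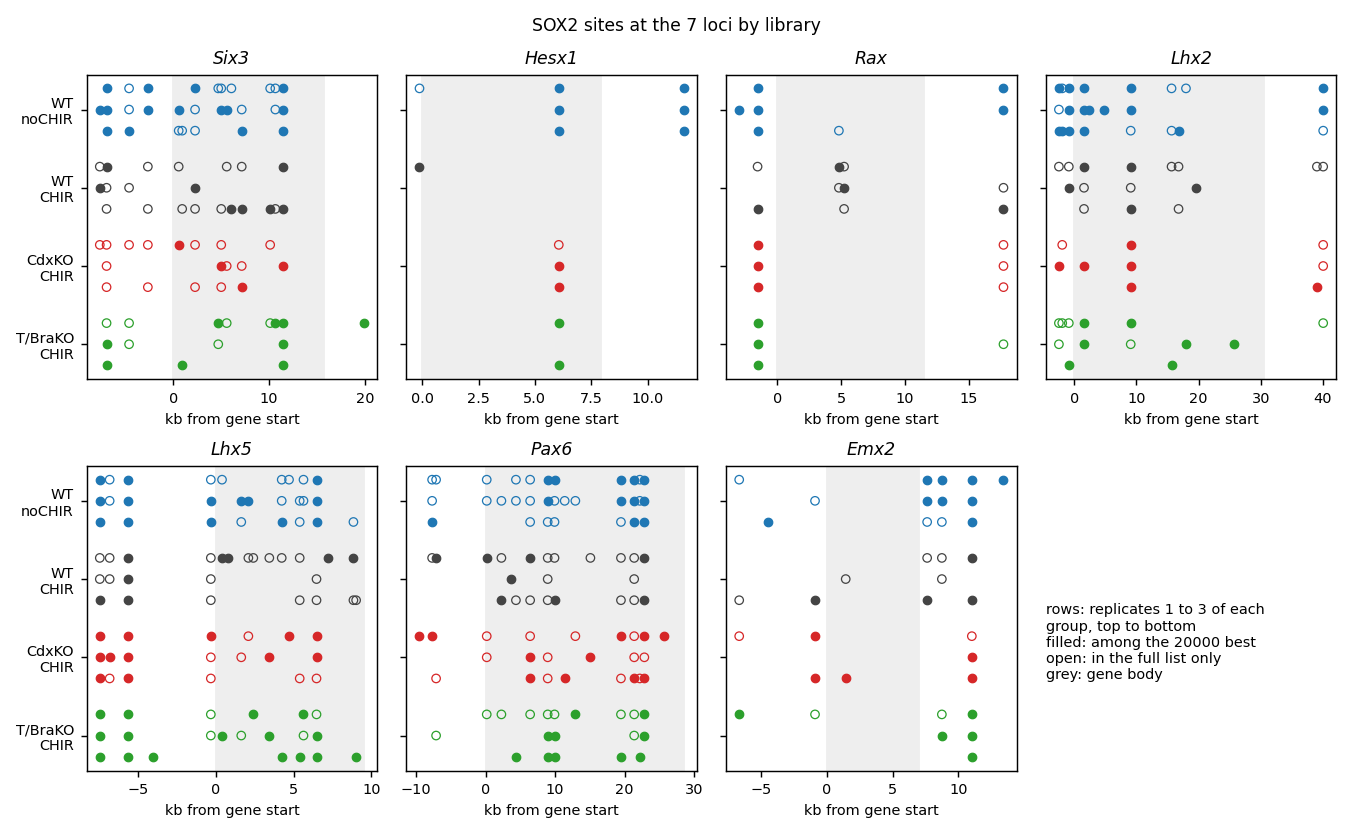
Positions of SOX2 sites at each locus (horizontal axis, kb from the gene start in the direction of the gene) in each library, with 3 replicates per condition from top to bottom. Filled circles are peaks among the 20000 best, open circles peaks of the full list only, and grey the gene body. The Hesx1 site at +11.60 kb appears in the noCHIR libraries alone, and the Rax site at −1.54 kb in all noCHIR and mutant libraries.

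Sites called in 3 of 3 libraries of one condition and 0 of 3 of another were counted next. Between noCHIR and WT CHIR there were 4 among 58 sites of the loci with noCHIR present (Hesx1 +6.06 kb, Hesx1 +11.60 kb, Lhx5 +6.47 kb and Pax6 +21.37 kb), beside 3.89% of 76008 sites in the genome, and 0 with WT CHIR present, beside 0.146%. Between CdxKO and noCHIR there were 3 among 53 with noCHIR present (Six3 −6.99 kb, Hesx1 +11.60 kb and Lhx2 −0.88 kb), beside 2.47% of 61339 sites, and 0 with CdxKO present, beside 0.742%. For CdxKO against WT CHIR none of 50 sites differed so, beside 0.955% of 81394 sites with CdxKO present and 0.059% with WT CHIR present. For T/BraKO against WT CHIR none of 55 did, beside 0.719% of 82807 sites with T/BraKO present and 0.0447% with WT CHIR present. With 58 and 53 sites, the 4 and 3 found are small numbers, and only Hesx1 +6.06 kb and Hesx1 +11.60 kb among the 4 were also missing from all full WT CHIR lists.

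Short motif words were looked for on either strand, up to 100 bp from each site's best summit. The words were CCATTGT or CCTTTGT for SOX factors, TTGTNATGC for the SOX-OCT composite, TAATCC for OTX, CTTTGAA or CTTTGAT for TCF/LEF, CAATAAA or CCATAAA or TAATAAA or TCATAAA for CDX and AGGTGTGA for T-box factors. The SOX word CCTTTGT and the TCF/LEF words share the letters CTTTG. The letter after them differs, so the same CTTTG cannot count as both. A SOX word was present at 15 of the 83 sites (18.1%), beside 17.0% of all SOX2 sites and 7.22% of windows moved by 1000 bp. An OTX word was present at 7 (8.43%, all sites 8.73%, moved windows 8.26%), a TCF/LEF word at 9 (10.8%, all sites 10.5%, moved windows 8.33%) and a CDX word at 5 (6.02%, all sites 14.2%, moved windows 17.0%). A T-box word was present at 1 (1.2%, all sites 0.971%, moved windows 0.817%) and the SOX-OCT word at 0 (all sites 1.64%, moved windows 0.526%). For OTX and CDX words the share at all SOX2 sites was thus near or below that of the moved windows. In the sequences above, the Hesx1 site had a SOX word starting 5 bp before its summit and an OTX word starting 42 bp before it. The Pax6 site had a TCF/LEF word 31 bp and a SOX word 57 bp after its summit, and the Six3 site had none of the words. The Rax site at −1.54 kb held 3 SOX words, starting 62 and 30 bp before and 15 bp after the summit. A word is a match of letters and does not show that the factor bound it.

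β-catenin, the WNT effector, was found at 65 sites of the loci. Summed over the 7, the libraries held 10, 7 and 10 peaks in WT, 11, 11 and 7 in CdxKO and 20, 17 and 17 in T/BraKO, all with CHIR, with means of 9.0 ± 1.73, 9.67 ± 2.31 and 18 ± 1.73 (SD, n = 3). All T/BraKO sums were above the rest among the 20000 best peaks, where the mean over all gene loci was 0.731 ± 0.0284 in WT and 0.721 ± 0.00474 in T/BraKO. At Pax6 the counts were 2, 1 and 1 in WT, 1, 1 and 1 in CdxKO and 5, 3 and 4 in T/BraKO, a difference of 2.67 between T/BraKO and WT (exact permutation p = 0.1, adjusted p = 1.0). It was the 1 locus of the 7 separated with T/BraKO higher, beside 1.73% of 15842 loci, and 0 were separated with T/BraKO lower, beside 1.93%. The count was 0 in full lists and 3 without WT replicate 3. The T/BraKO peaks at Pax6 were spread over sites of which none was called in 3 of 3 T/BraKO libraries. The most was 2 of 3, at +8.67 and +19.13 kb. Emx2 held 3, 3 and 3 peaks in T/BraKO, and its WT libraries 4, 1 and 0, whose highest count overlapped. Six3 held 2, 3 and 1 in T/BraKO, against 0, 0 and 1 in WT (difference 1.67, exact p = 0.2). The T/BraKO mean was higher at 6 of 7 loci, by a median of 1.33, and lower at Rax. In full lists the summed β-catenin counts were not so ordered, with 21, 43 and 125 peaks in WT (63.0 ± 54.8), 20 to 51 in CdxKO and 69, 35 and 30 in T/BraKO (44.7 ± 21.2).

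Between CdxKO and WT, β-catenin separated 0 of 7 loci in either direction, beside 1.23% of 16386 loci with CdxKO higher and 1.66% with CdxKO lower. Lhx5 had the most peaks and the widest spread, with 2, 1 and 5 in WT, 7, 5 and 0 in CdxKO and 4, 4 and 6 in T/BraKO. Over all 3 groups tested together (280 divisions of 9 libraries), 1 of 7 loci, Pax6, had an unadjusted exact p below 0.05, at 0.0357, beside 2.28% of 17403 loci. Its adjusted p was 1.0. The smallest p that this exact test of 9 libraries can give is 0.00357, so hardly any locus could pass after adjustment over all loci. In T/BraKO 6 of 37 sites were called in 3 of 3 replicates (16.2%, genome 18.3%), in CdxKO 1 of 22 (4.55%, genome 12.6%) and in WT 0 of 24 (genome 11.9%). The 6 of T/BraKO lay at Lhx2, Lhx5 and Emx2, and none at Pax6. At Lhx5, the site at +5.32 kb was called in 3 of 3 T/BraKO libraries, with ranks of 9985, 10895 and 7682. It was also called in 2 of 3 CdxKO and 1 of 3 WT libraries. The β-catenin site in the Emx2 gene at +0.30 kb ranked 12627, 12513 and 6720 in T/BraKO and was among the 20000 best of 1 WT library, at 8347, and of 1 CdxKO library.

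LEF1, a DNA-binding partner of β-catenin, gave 51 sites at the loci, of which 0 were called in 3 of 3 replicates of any group, where 0.868% to 1.78% of the LEF1 sites of a group in the genome were. No site was called in more than 2 of the 9 libraries, and none in more than 1 library of a group. The summed counts were 4, 3 and 6 in WT, 8, 10 and 10 in CdxKO and 3, 6 and 5 in T/BraKO, with CdxKO above the others. In full lists they overlapped, with 109, 104 and 25 in WT, 99, 118 and 69 in CdxKO and 113, 129 and 49 in T/BraKO. Pax6 held 0 in each of the WT libraries, 1, 2 and 3 in CdxKO and 0, 2 and 2 in T/BraKO. It was the 1 locus of the 7 separated with CdxKO higher (difference 2.0, exact permutation p = 0.1, adjusted p = 1.0), beside 1.39% of 18172 loci, and 0 were separated with CdxKO lower, beside 1.4%. The CdxKO LEF1 peaks at Pax6 lay at different sites, each called in 1 library. In full lists Pax6 was not separated, with all peaks of −log10 q of at least 5 the separated locus was Emx2 instead, and without WT replicate 2 the count was 2. Between T/BraKO and WT none was separated, beside 1.4% of 18090 loci with T/BraKO higher and 1.47% with T/BraKO lower. Over the 3 groups together, 0 of 7 had an unadjusted exact p below 0.05, beside 1.48% of 19438 loci, and the lowest was 0.164 at Pax6.

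**Figure D5:**
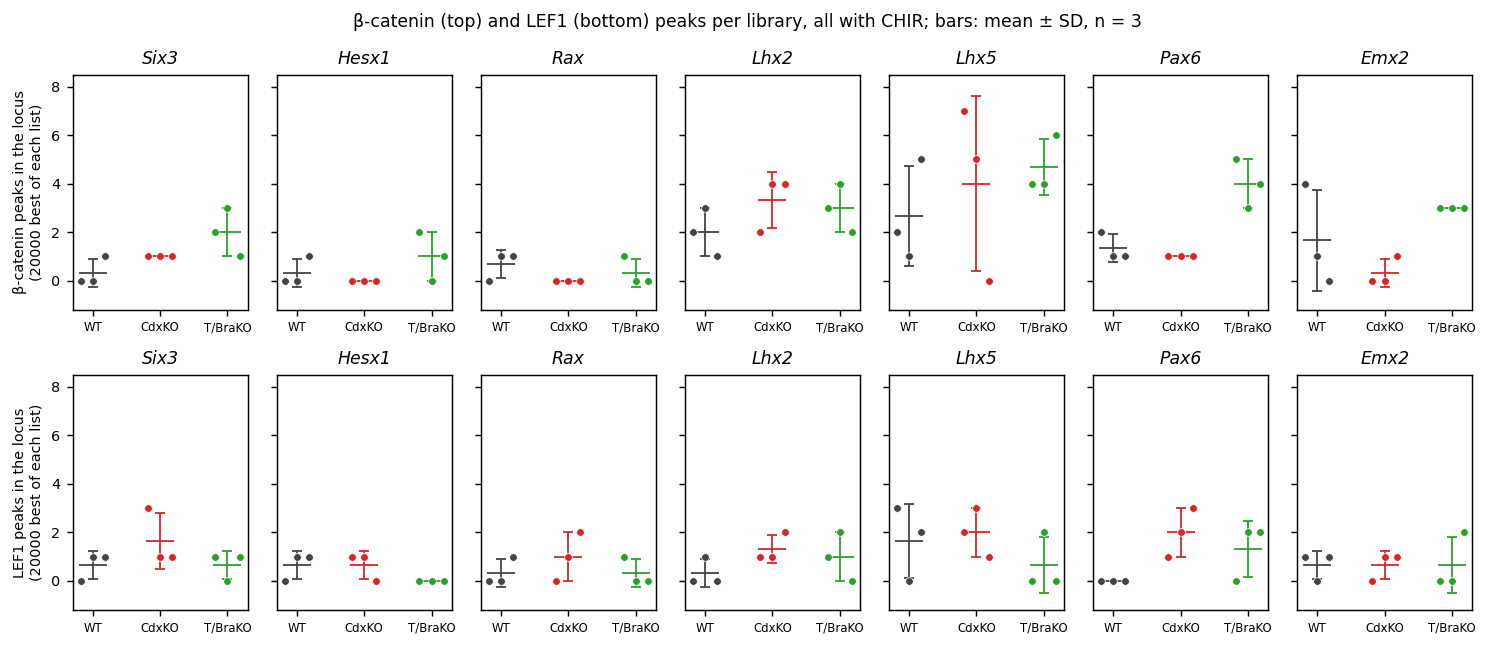
β-catenin (top) and LEF1 (bottom) peaks per library at each locus among the 20000 best peaks (vertical axis, number of peaks) in WT, CdxKO and T/BraKO cells with CHIR (horizontal axis). Points are replicates and bars the mean ± SD of 3. Pax6 has 3 to 5 β-catenin peaks in T/BraKO against 1 or 2 in WT, and 0 LEF1 peaks in WT.

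The sites of the factors were also set against each other. Of the 83 SOX2 sites, 26 overlapped a β-catenin site (31.3%, against 19.4% of all SOX2 sites), 17 a LEF1 site (20.5%, against 10.6%) and 9 both. Counted from the other side, 27 of the 65 β-catenin sites overlapped a SOX2 site (41.5%, against 24.7% in the genome) and 19 of the 51 LEF1 sites did (37.3%, against 8.14%). The overlap was unevenly spread, with 10 of 19 SOX2 sites at Lhx5 (52.6%) and 3 of 18 at Pax6 (16.7%) shared with β-catenin. These shares carry no test, and the sites were pooled over libraries of unequal replicate agreement.

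Other regulators of the same axis were counted by lists of genes. Of 16 other forebrain regulators, 15 had a higher mean number of SOX2 peaks in noCHIR than in WT CHIR, with a median difference of 1.0, and 4 were separated with noCHIR higher. These were Barhl2 (4.33 against 1.67), Dlx5 (2.67 against 1.0), Six6 (2.0 against 1.0) and Otx2 (5.33 against 2.0), and 0 were separated with noCHIR lower. Over all loci the shares so separated were 3.78% with noCHIR higher and 2.27% with noCHIR lower. Among loci with at least 12 SOX2 peaks they were 6.5% and 2.67%. Among 8 midbrain and hindbrain regulators the median difference was 0.333 and 1 was separated, En2 (4.33 against 1.0). Of 8 caudal epiblast regulators, 7 had the lower mean in noCHIR, with a median of −0.667 and 0 separated. Between CdxKO and noCHIR, the 15 other forebrain regulators tested had a median of −1.0, with Fezf1 (0.0 against 1.67) and Otx2 (3.33 against 5.33) separated with CdxKO lower, while all 8 caudal regulators had the higher mean in CdxKO, with a median of 0.833 and Cdx2 separated (5.33 against 3.33). The shares of all loci were 2.71% with CdxKO lower and 2.5% with CdxKO higher. Between CdxKO and WT CHIR the medians were 0.333 for the 7 members, 0.5 for the other forebrain regulators and 0.333 for the caudal ones. The lists were chosen with earlier results of these data known, so that their direction is a description.

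The loci moved together to unequal degrees across the 12 SOX2 libraries. Pearson's r of peak counts between loci was highest for Hesx1 and Lhx2 (0.826) and for Six3 and Rax (0.818). Only Six3 with Pax6 (0.0) and Lhx5 with Emx2 (−0.112) were not positive, and the remaining pairs lay between 0.134 and 0.682. These values are a description over 12 libraries that share groups. Of 5593 other genes with at least 12 SOX2 peaks, the 5 whose counts followed the summed count of the 7 loci most closely were Tbx15 (r = 0.908), Frmpd4 (0.906), Myt1l (0.903), Plekhm3 (0.895) and Pde1b (0.88). Plekhm3 held 7, 9 and 7 peaks in noCHIR and 1, 0 and 0 in WT CHIR, a wider gap than that of any of the 7 loci.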

How the data were processed

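ChIP–seq was analysed in 30 libraries with 3 replicates in each of 10 groups. The other 12 of the 42 samples of the series are input samples and were not analysed here. Groups were taken from the labels. The authors processed single-end reads with the nf-core/chipseq pipeline (read trimming with Trim Galore, alignment with BWA to mm10, filtering, and peak calling with MACS2 at its default q), and deposited 1 narrowPeak list per library. The pairing of inputs with libraries is not given in the sources used here. Among the columns, the deposited values are a fold enrichment ratio at the summit, −log10 of the p-value, −log10 of the q-value, and the summit's offset from the peak start.

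Each list was ordered by the deposited −log10 q and its 20000 best peaks were compared. Gene bodies of 21938 protein-coding genes were taken from the GENCODE basic annotation of the GRCm38 build (mm10) and extended by 10 kb. A locus was called separated where all replicates of one group had more peaks than all of the other. Differences were tested across all loci with a peak by two-sided exact permutation tests (all 20 assignments for 3 against 3, and all divisions of the libraries where 3 or 4 groups were tested together), with Benjamini-Hochberg adjustment over all loci. The tests were checked on simulated data. Sites were made for each factor by joining the best peaks of its libraries wherever they shared 1 bp or more.

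All 7 members are named, with the site of best mean rank of each (the leading site, that of Lhx5 not being reported here) and each site present in 3 of 3 and 0 of 3 libraries of a comparison. The β-catenin sites and the peak counts of Plekhm3 were picked after their values were seen. The members and gene lists were chosen with earlier results of these data known. Replicate numbers were not taken to pair the libraries, and the labels do not say whether they do. The alternatives tried were 5000 peaks, full lists, a −log10 q of at least 5, gene bodies with no extension or with 50 kb, summits in place of overlap, best ranks, a replicate block and leaving out each replicate. Tools were Python 3.11.15, numpy 2.4.6, pandas 2.3.3, pysam 0.24.0, samtools 1.23.1 and matplotlib 3.10.9.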

Additional observations from a re-analysis of the deposited data

How the results depend on the processing

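The counts of separated loci, out of 7, moved with the choice of peaks and of locus, and the cause was not tested. For SOX2 in noCHIR against WT CHIR, 2 loci were separated with noCHIR higher (Hesx1 and Lhx2). The count was 1 with the 5000 best peaks (Hesx1), 1 with no extension of the gene body (Hesx1), 1 with 50 kb (Lhx2), and 0 in full lists and with all peaks of −log10 q of at least 5. In full lists the difference was −2.0 at Hesx1 and −3.0 at Lhx2, which is the opposite direction, and it was negative at 6 of the 7 loci. By best rank, for which no share of all loci was counted, the count was 2, but of Hesx1 and Rax, and 1 locus, Pax6, was better ranked in WT CHIR. Leaving out 1 library gave 2 to 4 loci, the 4 without WT CHIR replicate 3. For CdxKO against noCHIR the 3 loci with CdxKO lower became 1 with 5000 peaks, 0 with no extension, 2 in full lists (Six3 and Emx2) and 4 at −log10 q of at least 5, and were 3 to 4 on leaving out a library.

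For CdxKO against WT CHIR, where no locus was separated, 1 had fewer peaks in CdxKO with 5000 peaks (Six3), in full lists (Rax) and with 50 kb (Rax), 1 was lower by best rank (Six3), and leaving out a library gave 0 to 1, the 1 without CdxKO replicate 2. For T/BraKO against WT CHIR, 1 was lower in full lists and 1 with 50 kb (Rax in both), and leaving out a library gave 0 to 1 higher, the 1 without WT CHIR replicate 1.

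For β-catenin in T/BraKO against WT, the 1 locus with T/BraKO higher (Pax6) became 0 with 5000 peaks, in full lists and at −log10 q of at least 5, and 2 with no extension and with 50 kb. It was 1 to 3 on leaving out a library, 3 without WT replicate 3 and 2 without WT replicate 1 or T/BraKO replicate 3. For β-catenin in CdxKO against WT, 1 was lower in full lists (Emx2), and leaving out a library gave 0 to 1 higher (1 without CdxKO replicate 1 or WT replicate 3) and 0 to 1 lower (1 without WT replicate 1). For LEF1 in CdxKO against WT, the 1 locus (Pax6) became 0 with 5000 peaks, in full lists, with no extension and with 50 kb, was Emx2 in place of Pax6 at −log10 q of at least 5, and was 1 to 2 on leaving out a library, 2 without WT replicate 2. For LEF1 in T/BraKO against WT it was 0 to 1 higher (1 without T/BraKO replicate 1) and 0 to 1 lower (1 without WT replicate 1).

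With the replicate block, the number of loci that differed in 1 direction in all 3 pairs was 2 for SOX2 in noCHIR against WT CHIR, 1 higher in CdxKO than in WT CHIR and 3 higher for β-catenin in T/BraKO. A paired test of 3 pairs cannot give a p below 0.25, and the deviations of same-numbered libraries correlated by −0.0759 to 0.0607, so the numbers were not taken to pair them. Of the recomputed counts, 38 moved beyond 1.5 times the reported one and 296 did not, and of the recomputed differences at single loci, 37 moved by more than the replicate spread, 2 reversed at the separated loci and 143 did neither. The recomputed counts include the numbers of loci that passed an adjusted p of 0.05. For single comparisons those were bound to stay at 0, so the 296 overstate the steadiness of the counts of separated loci. Over all loci, tested again under these settings as an alternative chosen after seeing the data, 0 passed an adjusted p of 0.05. What depth limits is unknown without read counts, and the 3 libraries of a group bound the exact permutation p of a single comparison at 0.1.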
